A study of Mus musculus with 9 samples.

Results

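The Fc receptor genes of splenic dendritic cells (DCs) were examined in mice with T cell acute lymphoblastic leukemia (T-ALL) and in healthy mice. The genes were 8 of the 54532 listed in the deposited table of FPKM, a level of reads on a gene scaled for gene length and library size, and were taken by symbol. They comprise the activating IgG receptors Fcgr1, Fcgr3 and Fcgr4, the inhibitory IgG receptor Fcgr2b, the signaling chain Fcer1g, the neonatal receptor Fcgrt, and the IgM and IgE receptors Fcmr and Fcer2a. All 8 passed the filter on low values (1 FPKM or more in 3 samples or more), which left 12746 genes for testing.

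Bulk RNA-seq was performed on DCs sorted from mouse spleen in 3 groups of 3 samples. N-mDCs were mature conventional DCs of healthy mice, T-mDCs were their counterparts from leukemic mice, and T-DCs, also from leukemic mice, were CD11c+ with low surface MHCII and are called immature DCs in the labels. Leukemia was made by infecting c-kit+ bone marrow of C57BL/6J mice with a retrovirus carrying the intracellular domain of Notch1 (ICN1) and GFP, and GFP+ leukemia cells were passed on to C57BL/6J or C57B6.SJL recipients that had not been irradiated. The recipient strain of the sequenced samples is not given in the sources used here. The methods give female mice of 6 to 8 weeks and a sort on day 15. For T-DCs the sources describe enrichment for CD11c and gates that left out GFP+ leukemia cells and cells bearing lymphocyte lineage markers. The same steps are not stated for the sort of mature DCs. The leukemia is thus driven by 1 oncogene in transplanted hosts that keep their own immune cells. Because the sources do not say that the samples of a group came from separate animals, the p-values measure only the spread between these samples, which may be technical.

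Fc receptors bind the constant part of antibodies and so let myeloid cells take up immune complexes and antibody-coated cells. The activating IgG receptors signal through the Fcer1g chain, which carries an immunoreceptor tyrosine-based activation motif (ITAM), whereas Fcgr2b carries an inhibitory motif (ITIM) in its own tail. On DCs the balance of activating and inhibitory IgG receptors is known to set how strongly the cells respond to immune complexes.

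Reads on genes ranged from 15360815 to 18440913 per sample. All 5 DC markers had lower levels in T-DCs relative to N-mDCs, and 4 of them were called. Their summed level was 497 to 1824 FPKM in T-DCs, 13020 to 19489 FPKM for N-mDCs and 8700 to 12194 FPKM in T-mDCs. Most of it came from the MHCII chaperone Cd74 (8706 to 13338 FPKM for N-mDCs) and the MHCII gene H2-Ab1 (4087 to 5936 FPKM). The sort itself took cells of low surface MHCII. Of the other markers, Flt3 (-2.76, limma, adjusted p = 0.00375) and Zbtb46 (-1.96, adjusted p = 0.00554) were called lower. Itgax, which encodes CD11c, was not called (-1.09, limma, adjusted p = 0.0926). T-DC samples 2 and 3 held 5% and 3.83% of their reads on 7 red cell genes, against 0.0559% in T-DC sample 1 and at most 0.43% in the other groups. T-mDC samples 2 and 3 resembled each other most, with a chi-square of 1.8 per gene over genes of 20 to under 200 reads, where other pairs within a group had 5.45 to 19. Over genes of 2000 reads or more, it was 3.72, where other pairs had 111 to 1360. T-mDC samples 2 and 3 still differed by more than counting error and were kept as separate samples. T-mDC sample 1 stood apart from them at several Fc receptor genes. Results of Fcgr4 and Fcgr2b are given with and without it. Those of Fcgr3, Fcer1g and Fcmr that involve T-mDCs are given only with it. In bulk samples, fewer cells of a type and less RNA per cell cannot be told apart.

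T-DCs expressed far higher levels of Fcgr4 than N-mDCs or T-mDCs, and it was the only one of the 8 genes called higher in these limma fits. Against N-mDCs, 4 of the 8 genes passed the test (limma, adjusted p under 0.05), where 16.4% of all genes tested passed. Fcgr4 was higher (6.1% of all genes were) and Fcgr1, Fcmr and Fcer2a were lower (10.3% of all genes were). Against T-mDCs, 2 passed, where 14.2% of all genes did, with Fcgr4 higher (5.44% of all genes) and Fcer2a lower (8.79%). When T-mDCs were set against N-mDCs, Fcgr1 alone passed and was lower in T-mDCs, where 2.21% of all genes passed, 0.69% higher and 1.52% lower. The median log2 difference over all genes was 0.05, 0.07 and 0.03 in these comparisons. The comparisons share groups of samples, so that they are not independent of each other.

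**Figure D1:**
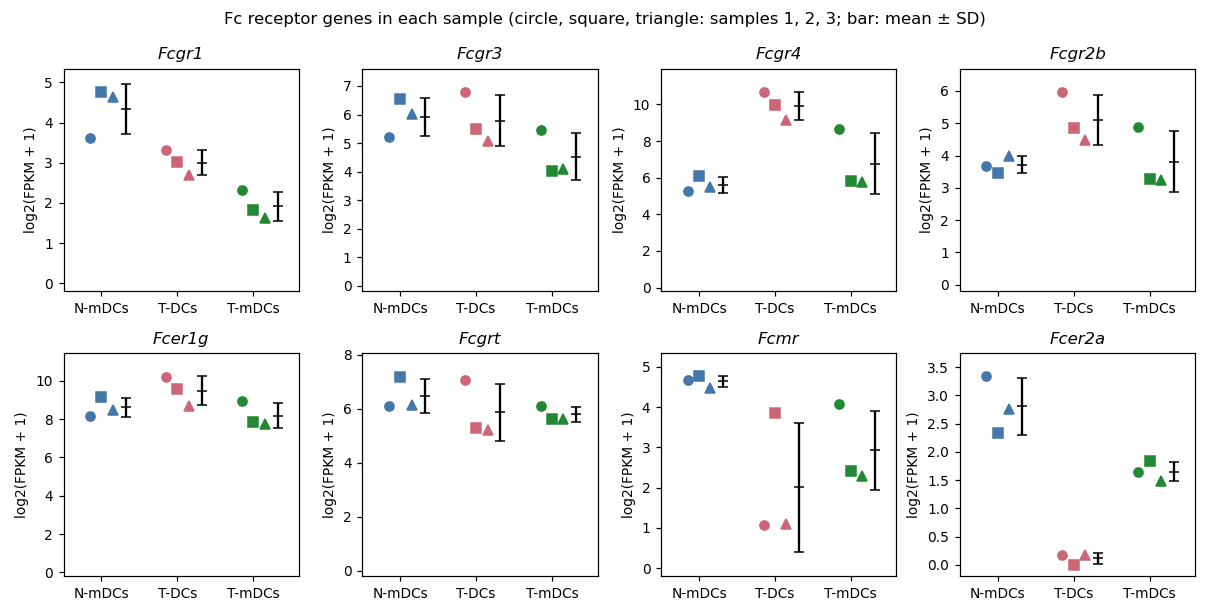
Levels of the 8 Fc receptor genes as log2(FPKM + 1) in each sample of the 3 groups. Circles, squares and triangles are samples 1, 2 and 3, and the bars beside them give the mean ± SD of 3 samples. Fcgr4 is above the other groups in all 3 T-DC samples, and Fcer2a is near 0 in all 3.

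Fcgr4 encodes FcγRIV, an activating receptor for IgG2 subclasses that is found on myeloid cells. In the table it is ENSMUSG00000059089, at chr1:171018920-171029761 on the plus strand of mm10. Its level was 1637, 1010 and 566 FPKM in T-DC samples 1, 2 and 3. It was 37.3, 68.0 and 44.6 FPKM in the N-mDC samples. It was 407, 56.0 and 54.4 FPKM in the T-mDC samples. Every T-DC sample was therefore above every sample of the other groups, and T-mDC sample 1 lay between the T-DCs and the remaining T-mDCs. By mean FPKM, Fcgr4 ranked 21 among the 12746 genes in T-DCs, 242 in T-mDCs and 1093 in N-mDCs.

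The mean FPKM of Fcgr4 was 21.4 times that of N-mDCs, a log2 fold change of 4.31 (SE 0.75, 95% interval 2.603 to 6.01, n = 3 per group, limma, adjusted p = 0.00761). This log2 fold change, like all those given here, is on the log2(FPKM + 1) scale. It ranked 18 from the highest among all genes tested. Against T-mDCs the mean was 6.21 times as high, a log2 fold change of 3.17 (SE 0.75, limma, adjusted p = 0.0265). Between T-mDCs and N-mDCs the samples overlapped, and the log2 fold change of 1.14 (SE 0.75) had an adjusted p of 0.483 in limma.

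The call against N-mDCs held when any 1 of the 9 samples was left out, with limma adjusted p from 0.00107 to 0.0340, but not with the red cell genes as a covariate (4.08, adjusted p = 0.0611). The call against T-mDCs ended without T-DC sample 2 (3.15, adjusted p = 0.0804), without T-mDC sample 2 (2.70, adjusted p = 0.112), without T-mDC sample 3 (2.68, adjusted p = 0.111) and with the last 2 averaged as 1 sample (2.69, adjusted p = 0.112), and with the red cell covariate (2.80, adjusted p = 0.432). Without T-mDC sample 1, the log2 fold change of Fcgr4 was 4.12 against T-mDCs (limma, adjusted p = 0.00216) and 0.19 between T-mDCs and N-mDCs (adjusted p = 0.876).

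Fcgr4 is used as a marker of patrolling monocytes and is also found on neutrophils and some macrophages, so the markers of these cells were set beside it. Markers of monocytes (6 genes) summed to 929 to 2197 FPKM in T-DCs, 1087 to 2486 FPKM for N-mDCs and 265 to 790 FPKM in T-mDCs, so that T-DCs and N-mDCs overlapped. By gene, 0 of the 6 were called higher and 1 lower against N-mDCs, and 3 were called higher and 0 lower against T-mDCs. None of the 6 was at 0 throughout a group. A list of 8 genes of patrolling monocytes was written after the values of Fcgr4 were seen, so it describes levels only. Of these, 7 had higher levels in T-DCs relative to N-mDCs, with 3 called (limma, Cd300e 2.74, Spn 2.48 and Pglyrp1 1.93 on the log2 scale), and all 8 had higher levels against T-mDCs, with 6 called. Spn was at 249, 145 and 129 FPKM in T-DCs, 18.9, 33.9 and 38.0 FPKM for N-mDCs and 72.1, 16.0 and 15.7 FPKM for T-mDCs, without overlap of T-DCs with the others. The sum of the 8 genes overlapped between T-DCs (1048 to 2923 FPKM) and N-mDCs (1458 to 1755 FPKM). In N-mDCs 1183 to 1435 FPKM of it came from Nr4a1. This gene was lower in T-DCs without overlap (-1.36, limma, adjusted p = 0.0631). Eno3 and Treml4 overlapped between T-DCs and N-mDCs. Cx3cr1, the fractalkine receptor of both lists, was at 92.2, 50.1 and 34.4 FPKM in T-DCs, 8.72, 12.6 and 16.5 FPKM for N-mDCs and 27.1, 4.49 and 4.19 FPKM in T-mDCs, which is the sample order of Fcgr4 in T-DCs and T-mDCs. Neutrophil markers (7 genes) summed to 8.55, 4184 and 1471 FPKM in the T-DC samples, and the sample with the highest Fcgr4 was the one with the lowest sum. Markers of macrophages (12 genes) summed to 4363, 1523 and 896 FPKM in T-DCs and 2055, 646 and 642 FPKM in T-mDCs. This, too, is the sample order of Fcgr4 in both groups. For N-mDCs they summed to 2455 to 4875 FPKM. All 12 had higher levels in T-DCs relative to T-mDCs, and 9 had lower levels relative to N-mDCs. By test, 0 of the 12 were called in any comparison. The part of monocytes (patrolling monocytes included), neutrophils or macrophages in the level of Fcgr4 was not tested.

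**Figure D2:**
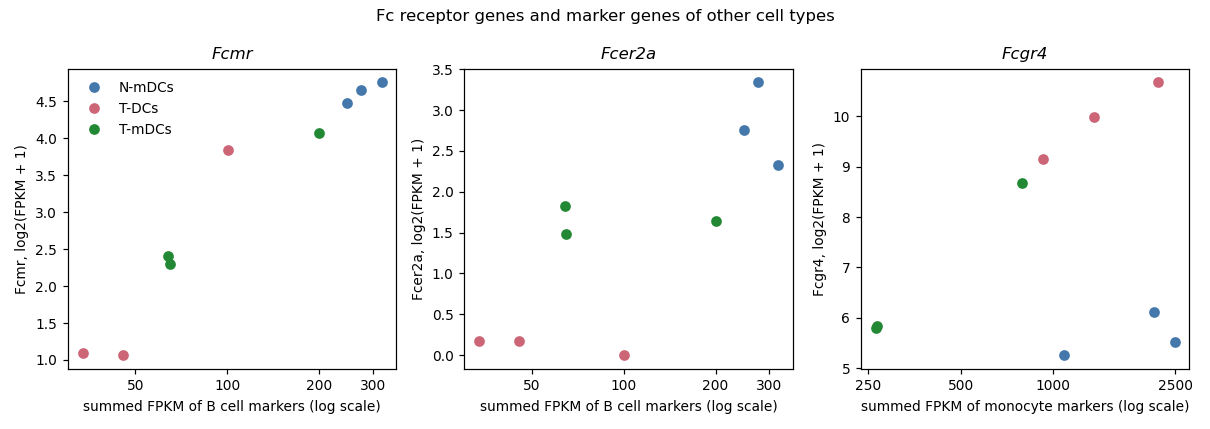
Fcmr, Fcer2a and Fcgr4 as log2(FPKM + 1) against the summed FPKM of 7 B cell markers or 6 monocyte markers (log scale), 1 point per sample, colored by group. Fcmr follows the B cell sum over the 9 samples, and Fcer2a is lowest in all 3 T-DC samples. T-DCs and N-mDCs overlap in the sum of these 6 monocyte markers. That sum leaves out most genes of the patrolling monocyte list, which was written after the values of Fcgr4 were seen. Of the 8 genes on that list, 3 were called higher in T-DCs against N-mDCs.

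Fcgr1 encodes FcγRI, the high-affinity activating receptor for IgG. In the table it is ENSMUSG00000015947, at chr3:96282909-96293969 on the minus strand of mm10. Its level was 11.3, 26.3 and 23.8 FPKM for N-mDCs. It was 8.88, 7.08 and 5.44 FPKM in T-DCs. It was 3.99, 2.56 and 2.06 FPKM in T-mDCs. The 3 groups did not overlap, and the order was N-mDCs, T-DCs, T-mDCs from high to low.

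Fcgr1 fell by 2.42 on the log2 scale in T-mDCs against N-mDCs (SE 0.34, limma, adjusted p = 0.0155), to 0.140 of the mean. It fell by 1.34 in T-DCs against N-mDCs (SE 0.34, limma, adjusted p = 0.0307), to 0.349 of the mean. The step between T-DCs and T-mDCs, 1.08 (95% interval 0.32 to 1.85), did not pass after adjustment (limma, adjusted p = 0.0650), except without N-mDC sample 1 (adjusted p = 0.0335) and with array weights. The T-DC call ended when 1 of N-mDC samples 2 and 3, T-DC samples 2 and 3 and T-mDC sample 2 was left out, with limma adjusted p of 0.0842, 0.0997, 0.0850, 0.0943 and 0.0540 in that order. The T-mDC call ended without N-mDC sample 2 or 3 or T-mDC sample 2 or 3, with limma adjusted p of 0.0625, 0.0714, 0.0828 and 0.0785, and with T-mDC samples 2 and 3 averaged.

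Fcgr3 encodes FcγRIII, a low-affinity activating receptor for IgG, and is ENSMUSG00000059498 at chr1:171051174-171064935 on the minus strand. Its level was 35.8, 91.2 and 63.4 FPKM for N-mDCs. It was 110, 43.8 and 32.4 FPKM in T-DCs, and 43.0, 15.2 and 15.9 FPKM in T-mDCs. All 3 groups overlapped. The log2 fold change was -0.13 in T-DCs against N-mDCs (95% interval -1.41 to 1.15, limma, adjusted p = 0.893), which leaves room for a change of more than 1 log2 unit in either direction. Its sign changed without N-mDC sample 2 (0.18) and without T-DC sample 2 or 3 (0.02 and 0.23). Against T-mDCs it was 1.26 (95% interval -0.02 to 2.54, limma, adjusted p = 0.172), and in T-mDCs against N-mDCs -1.39 (95% interval -2.67 to -0.11, adjusted p = 0.259).

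The 2 activating receptors called in opposite directions against N-mDCs are shown with the sequence before their gene starts, so that the letters upstream of Fcgr4 and Fcgr1 can be compared. The sequences are RefSeq promoter windows of build GRCm38.p6, read 5′ to 3′ on the strand of the gene and ended at the last base before the gene start of the deposited table. Capitals mark GAGGAAG, a motif of the ETS family to which the myeloid factor PU.1 belongs, searched on both strands. Fcgr4 is shown from chr1:171018676-171018919 (plus strand, 244 bases) and Fcgr1 from chr3:96293970-96294219 (minus strand, 250 bases).
Fcgr4: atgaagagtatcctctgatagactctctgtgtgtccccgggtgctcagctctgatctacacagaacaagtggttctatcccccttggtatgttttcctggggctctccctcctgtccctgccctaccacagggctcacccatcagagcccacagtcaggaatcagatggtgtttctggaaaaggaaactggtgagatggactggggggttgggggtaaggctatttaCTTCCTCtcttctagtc
Fcgr1: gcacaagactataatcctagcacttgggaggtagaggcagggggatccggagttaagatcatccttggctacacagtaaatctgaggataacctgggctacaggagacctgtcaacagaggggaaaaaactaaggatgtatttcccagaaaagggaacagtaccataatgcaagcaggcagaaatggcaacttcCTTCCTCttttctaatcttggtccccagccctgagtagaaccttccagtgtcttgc
Both hold GAGGAAG read on the opposite strand, 10 bases before the start of Fcgr4 and 49 bases before that of Fcgr1. Over 32851 RefSeq windows of 300 bases, 13.6% hold GAGGAAG, as do 4 of the 11 windows of the 8 Fc receptor genes (those of Fcgr1, Fcgr3 and Fcgr4). The motif was chosen with the sequences in view, and a match describes the letters only.

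Fcgr2b encodes FcγRIIB, the inhibitory receptor for IgG, and is ENSMUSG00000026656 at chr1:170958617-170976547 on the minus strand, in the same cluster as Fcgr3 and Fcgr4. Its level was 61.8, 27.7 and 21.5 FPKM in T-DCs. It was 11.8, 10.1 and 14.9 FPKM for N-mDCs, and 28.7, 8.74 and 8.53 FPKM in T-mDCs. All T-DC samples were above all N-mDC samples, whereas T-mDC sample 1 reached into the range of T-DCs. Samples did not overlap for 5 of the 8 genes against N-mDCs, where 32.4% of all genes tested did not, for 3 against T-mDCs (34.9% of all genes) and for 3 between T-mDCs and N-mDCs (35% of all genes).

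The mean FPKM of Fcgr2b in T-DCs was 3.02 times that of N-mDCs and 2.41 times that of T-mDCs, and neither passed the test. The log2 fold changes were 1.39 (95% interval 0.24 to 2.54, limma, adjusted p = 0.0903) and 1.29 (95% interval 0.14 to 2.44, adjusted p = 0.126). Without T-mDC sample 1 both passed, at 1.39 (limma, adjusted p = 0.0436) and 1.83 (adjusted p = 0.0247). Between T-mDCs and N-mDCs the difference was 0.10 (95% interval -1.05 to 1.25) and its sign changed without T-mDC sample 1 (-0.44) and without N-mDC sample 2 (-0.02). Fcgr2b and Fcgr3 share sequence, with 6.95% and 9.58% of their 50-base stretches found in other transcripts, for Fcgr3 those of Fcgr2b, so that the counting could have moved some reads between them.

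**Figure D3:**
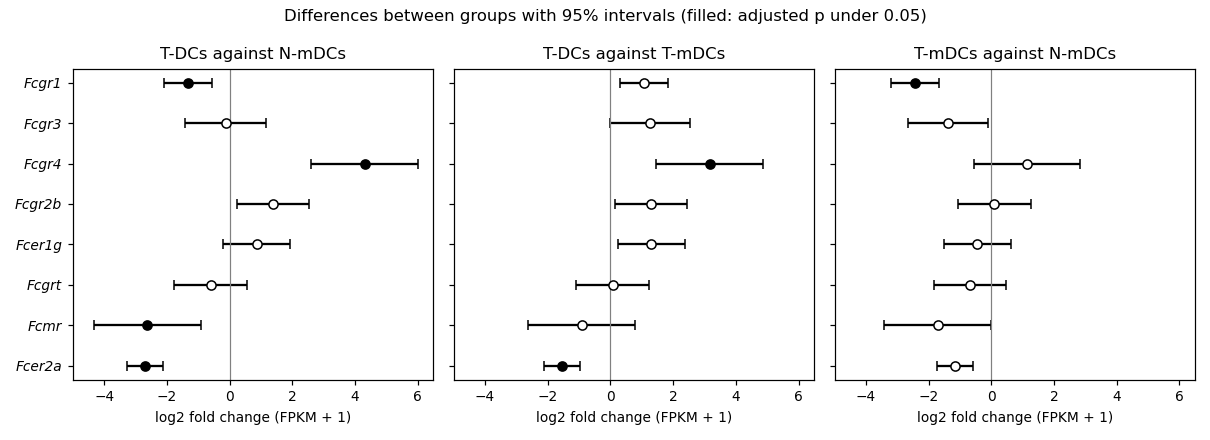
Log2 fold change of each Fc receptor gene in the 3 comparisons, on the log2(FPKM + 1) scale, with 95% intervals from limma that are not adjusted for the number of genes. Filled points passed an adjusted p of 0.05, which are 4 genes against N-mDCs, 2 in T-DCs against T-mDCs and 1 in T-mDCs against N-mDCs.

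Fcer1g encodes the common γ chain that activating Fc receptors need to signal and, for most of them, to reach the surface. It is ENSMUSG00000058715 at chr1:171229572-171234365 on the minus strand and was the most abundant Fc receptor mRNA by mean FPKM in N-mDCs and T-mDCs. Its level was 292, 579 and 361 FPKM for N-mDCs. It was 1183, 755 and 409 FPKM in T-DCs, and 492, 228 and 215 FPKM in T-mDCs. The groups overlapped. The log2 fold change was 0.86 in T-DCs against N-mDCs (95% interval -0.21 to 1.93, limma, adjusted p = 0.222), 1.30 against T-mDCs (95% interval 0.23 to 2.37, adjusted p = 0.1004) and -0.44 in T-mDCs against N-mDCs (95% interval -1.51 to 0.63, adjusted p = 0.679).

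The level of Fcer1g relative to the receptors that use it was given within each sample, where a library's total cancels. FPKM of Fcer1g over the summed FPKM of Fcgr1, Fcgr3 and Fcgr4 was 3.46, 3.12 and 2.74 in N-mDCs. It was 0.673, 0.712 and 0.678 in T-DCs, and 1.08, 3.09 and 2.98 in T-mDCs. In FPKM, the 3 activating receptor mRNAs together thus exceeded the chain only in the T-DC samples. The highest T-DC sample was below the lowest sample of either other group, and T-mDC sample 1 again lay between. Levels of different genes in FPKM rest on the gene lengths of the deposited table (874 bases for Fcer1g, 1256 for Fcgr4). In reads, Fcgr4 alone exceeded Fcer1g in T-mDC sample 1 too (9658 and 8112).

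The activating to inhibitory balance depended on which activating receptor was counted. The ratio of the summed FPKM of Fcgr1, Fcgr3 and Fcgr4 to that of Fcgr2b was 28.4, 38.3 and 28.1 in T-DCs. It was 7.15, 18.4 and 8.86 in N-mDCs, and 15.8, 8.44 and 8.49 in T-mDCs. On this scale all T-DC samples were above all others, while N-mDCs and T-mDCs overlapped. The mean log2 ratio of T-DCs was 1.57 above that of N-mDCs and 1.58 above that of T-mDCs. No test was made on these ratios, which combine the genes chosen. The size of ratios and shares between genes also rests on the gene lengths of the deposited table. In T-DC sample 1, Fcgr3 was above Fcgr2b in FPKM but below it in reads (3424 and 6412).

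Fcgr4 made up most of that sum in T-DCs and T-mDCs, but not in N-mDCs. Its share of the summed FPKM of the 4 IgG receptors was 90.1%, 92.8% and 90.5% in T-DCs. It was 38.8%, 34.8% and 30.4% in N-mDCs, and 84.3%, 67.9% and 67.2% in T-mDCs. The 3 groups did not overlap in this share. Fcgr3 held 37.2% to 46.6% for N-mDCs, 4.02% to 6.06% for T-DCs and 8.91% to 19.7% for T-mDCs. Fcgr1 held 11.7% to 16.2%, 0.489% to 0.871% and 0.826% to 3.10% in the same order. The share of Fcgr2b was 5.14% to 12.3% for N-mDCs, 2.54% to 3.44% for T-DCs and 5.94% to 10.6% for T-mDCs.

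The other activating receptors went the opposite way against Fcgr2b. The ratio of Fcgr3 to Fcgr2b was 3.04, 9.06 and 4.26 in N-mDCs. It was 1.78, 1.58 and 1.51 in T-DCs, and 1.499, 1.74 and 1.87 in T-mDCs, so that both groups of leukemic mice were below all N-mDC samples and overlapped each other. The ratio of Fcgr1 to Fcgr2b was 0.955, 2.61 and 1.60 in N-mDCs, 0.144, 0.256 and 0.253 in T-DCs, and 0.139, 0.293 and 0.241 in T-mDCs. With Fcgr3 alone over Fcgr2b, the mean log2 ratio of T-DCs was 1.60 lower than that of N-mDCs (a difference of -1.60) and close to that of T-mDCs (a difference of -0.07). With the mean of the 3 log2 levels, which gives each activating gene the same weight, T-DCs differed by -0.54 from N-mDCs and by 0.58 from T-mDCs.

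**Figure D4:**
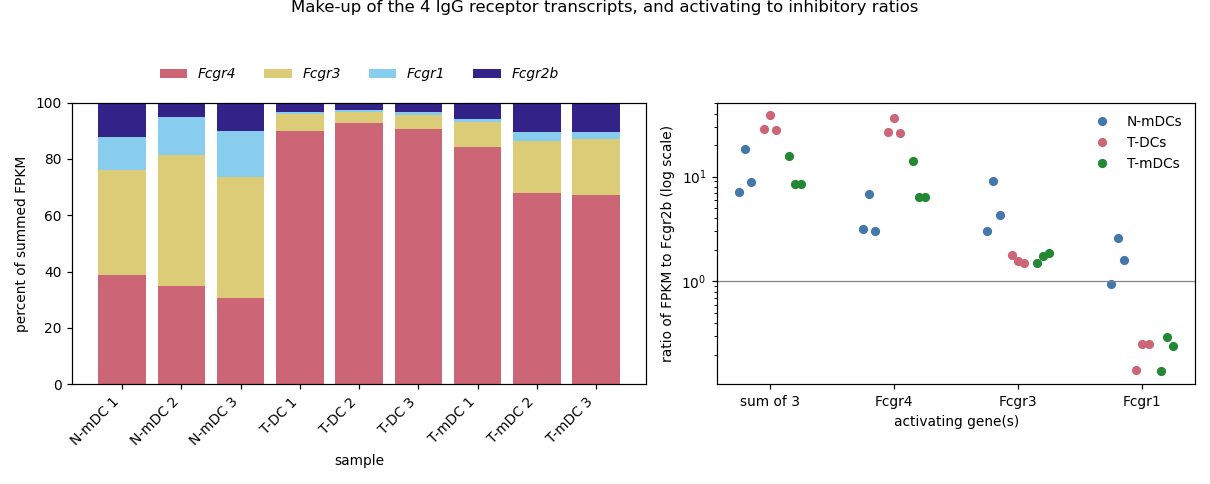
Left, percent of the summed FPKM of the 4 IgG receptor genes taken by each gene in each sample. Right, ratio of the 3 activating genes together and of each activating gene to Fcgr2b, 1 point per sample on a log scale, with a line at a ratio of 1. Fcgr4 takes over 90% in T-DCs, and the ratios of Fcgr3 and Fcgr1 to Fcgr2b are lower in both groups from leukemic mice than in N-mDCs.

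Fcgrt encodes the heavy chain of the neonatal Fc receptor (FcRn), which binds IgG inside the cell and returns it from endosomes, together with β2-microglobulin (B2m). It is ENSMUSG00000003420 at chr7:45092990-45103851 on the minus strand. Its level was 67.6, 144 and 68.8 FPKM for N-mDCs. It was 133, 38.1 and 36.3 FPKM in T-DCs, and 67.7, 48.7 and 48.4 FPKM in T-mDCs. T-DC sample 1 was within the range of N-mDCs, whereas the other T-DC samples were the lowest of all. Those 2 samples were also the ones with red cell reads, whose part in this was not tested. The log2 fold change was -0.61 in T-DCs against N-mDCs (95% interval -1.77 to 0.55, limma, adjusted p = 0.421), and without T-DC sample 1 it was -1.21 (adjusted p = 0.0228). Against T-mDCs it was 0.07 (95% interval -1.09 to 1.23, limma, adjusted p = 0.939), with a sign that changed when values were rescaled to TPM (-0.26). In T-mDCs against N-mDCs it was -0.68 (limma, adjusted p = 0.539). B2m was at 2373 to 3421 FPKM in T-DCs and differed from N-mDCs by -0.10 on the log2 scale (limma, adjusted p = 0.753).

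Fcmr and Fcer2a, which mouse B cells are known to express, were lower in T-DCs relative to N-mDCs. Fcmr encodes the receptor for IgM and is ENSMUSG00000042474 at chr1:130865669-130880791 on the plus strand. Its level was 24.3, 26.1 and 21.4 FPKM for N-mDCs. It was 1.09, 13.4 and 1.14 FPKM in T-DCs, and 15.7, 4.29 and 3.92 FPKM in T-mDCs. N-mDCs were above all samples of both other groups, T-DC sample 2 stood far above the other T-DCs, and T-mDC sample 1 above the other T-mDCs.

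Fcmr fell by 2.63 on the log2 scale in T-DCs against N-mDCs (SE 0.75, limma, adjusted p = 0.0458), to 0.218 of the mean. The call ended without any of the 3 N-mDC samples (limma, adjusted p = 0.118, 0.106 and 0.106), without T-DC sample 1 or 3 (0.0608 and 0.139) and without T-mDC sample 2 or 3 (0.0679 and 0.0658). The difference was -1.71 in T-mDCs against N-mDCs (limma, adjusted p = 0.298) and -0.92 in T-DCs against T-mDCs (95% interval -2.63 to 0.79, adjusted p = 0.443), where groups overlapped.

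Fcer2a encodes CD23, the low-affinity receptor for IgE, and is ENSMUSG00000005540 at chr8:3681737-3694175 on the minus strand. Its level was 9.14, 4.04 and 5.74 FPKM for N-mDCs. It was 0.126, 0 and 0.128 FPKM in T-DCs, which stood for 7, 0 and 6 reads, and 0 reads in sample 2 allow a level of up to 0.0626 FPKM (3 reads, counting error only). It was 2.12, 2.56 and 1.79 FPKM in T-mDCs, or 124, 153 and 102 reads. The 3 groups did not overlap, with T-DCs lowest and T-mDCs between.

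Fcer2a fell by 2.69 on the log2 scale in T-DCs against N-mDCs (SE 0.25, limma, adjusted p = 0.000743) and by 1.54 against T-mDCs (SE 0.25, adjusted p = 0.00652). The mean FPKM in T-DCs was 0.0134 of that of N-mDCs and 0.0392 of that of T-mDCs, ratios that the added 1 FPKM draws in on the log2 scale. Both calls held when any 1 of the 9 samples was left out, with limma adjusted p from 0.000272 to 0.00552 and from 0.00420 to 0.0390, and the latter ended with the red cell covariate (-1.05, adjusted p = 0.338). In T-mDCs against N-mDCs the difference of -1.16 did not pass (95% interval -1.73 to -0.58, limma, adjusted p = 0.0578), except without T-DC sample 1 (adjusted p = 0.0344) and with array weights.

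B cell markers, like both genes, were lower in T-DCs relative to N-mDCs. The gates given for T-DCs left out cells bearing lymphocyte lineage markers. The 7 markers summed to 275, 320 and 247 FPKM for N-mDCs, 45.4, 100 and 33.6 FPKM in T-DCs and 200, 64.0 and 64.9 FPKM in T-mDCs, and 6 of the 7 were called lower in T-DCs relative to N-mDCs. No marker was at 0 throughout a group. The sample with the highest Fcmr in each of T-DCs and T-mDCs was also the one with the highest sum. In Fcer2a this was not so in any group. T-DC sample 2, with the highest sum of its group, had 0 reads. N-mDC sample 2 had the highest sum and the lowest Fcer2a of its group (4.04 FPKM). T-mDC sample 1 had the highest sum but less Fcer2a than sample 2 (2.12 and 2.56 FPKM). The part of B cells in the levels of Fcmr and Fcer2a was not tested.

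Genes that act with the Fc receptors were taken from lists by function. Of 26 ITAM signaling genes, which include the kinase Syk, 0 were called higher and 4 lower in T-DCs relative to N-mDCs. These were the kinases Tec (-1.59, limma, adjusted p = 0.00781) and Src (-1.27, adjusted p = 0.0297), the exchange factor Vav2 (-1.38, adjusted p = 0.0372) and the phospholipase Plcg1 (-1.15, adjusted p = 0.00982). The median log2 difference of the list was -0.07, and its 4 calls of 26 are a share near the 16.4% of all genes called in that comparison. The counts of the lists that follow stand beside the same 16.4% against N-mDCs, 14.2% against T-mDCs and 2.21% for T-mDCs against N-mDCs. With the red cell covariate, 0 of all genes tested were called by limma in T-DCs against T-mDCs (1608 at an unadjusted p under 0.05), so that every call of that comparison named here was lost. The calls of Tec and Plcg1 held without any 1 sample (limma, adjusted p at most 0.0345 and 0.0435), and that of Plcg1 was lost with the red cell covariate (adjusted p = 0.0815). That of Vav2 held in 1 and that of Src in 3 of the 9 fits that left out a sample, with limma adjusted p up to 0.117 (without T-DC sample 2) and 0.0981 (without N-mDC sample 1). Syk itself was at 81.3, 53.2 and 27.0 FPKM in T-DCs and 62.1, 54.4 and 70.7 FPKM for N-mDCs, or -0.33 on the log2 scale (limma, adjusted p = 0.571). Against T-mDCs, Plcg1 alone was called, lower by a log2 difference of -1.02 (limma, adjusted p = 0.0179), and not without T-DC sample 3 (0.0522) or T-mDC sample 2 or 3 (0.0921 and 0.0907). Between T-mDCs and N-mDCs, 0 of the 26 were called.

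Of 9 genes of inhibitory signaling, 2 were called higher and 0 lower in T-DCs relative to N-mDCs, with a median of 0.08. The phosphatase Ptpn11 was at 32.3, 24.8 and 25.0 FPKM in T-DCs and 16.8, 11.5 and 16.0 FPKM for N-mDCs, or 0.85 on the log2 scale (limma, adjusted p = 0.0201). This call held without any 1 sample but was lost after rescaling to TPM, with quantile normalization and with only the groups compared (limma, adjusted p up to 0.107). The Csk-binding adaptor Pag1 rose by 1.87 (limma, adjusted p = 0.0404), and 3 of the 9 fits without a sample kept its call, with adjusted p up to 0.118 without N-mDC sample 1. Against T-mDCs, the adaptor Dok3 was higher by 2.67 (limma, adjusted p = 0.0393), which held in 2 of the 9 fits and ended, among others, without T-mDC sample 2 (0.153). Inpp5d, the phosphatase that Fcgr2b is known to recruit, was at 58.2, 29.0 and 22.4 FPKM in T-DCs and 46.6 to 56.9 FPKM for N-mDCs and was not called (-0.60, limma, adjusted p = 0.2004). None of the 9 was called in T-mDCs against N-mDCs.

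Of 17 other receptors with an inhibitory motif, 2 were called higher and 2 lower against N-mDCs, with a median of -0.08. Siglecg, a sialic acid lectin, was at 2.73, 4.46 and 1.47 FPKM in T-DCs and 48.2, 35.0 and 41.2 FPKM for N-mDCs, a log2 difference of -3.51 (limma, adjusted p = 0.00101). The B cell lectin Cd22, one of the 7 B cell markers above, was lower by a difference of -2.76 (limma, adjusted p = 0.00662), and both calls held without any 1 sample. The adhesion receptors Ceacam1 and Pecam1 were higher by 2.22 (limma, adjusted p = 0.0426) and 1.54 (adjusted p = 0.0443), calls that held in 1 and 3 of the 9 fits without a sample, with adjusted p up to 0.118 without N-mDC sample 1 and 0.125 without T-DC sample 2. Against T-mDCs, Siglecg was lower (-3.11, limma, adjusted p = 0.00197, held without any 1 sample), and Ceacam1 (2.98, adjusted p = 0.0172) and the paired receptor Pilra (2.22, adjusted p = 0.0277) were higher. Both of the latter lost the call without T-DC sample 2 (limma, adjusted p = 0.0553 and 0.0847), T-mDC sample 2 (0.0790 and 0.118) or T-mDC sample 3 (0.0779 and 0.118). None of the 17 was called in T-mDCs against N-mDCs.

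Among 8 tested receptors and adaptors that pair with Fcer1g or act like it, the NK cell receptor Ncr1 was lower in T-DCs (-2.37, limma, adjusted p = 0.00707, held without any 1 sample) and in T-mDCs (-2.35, adjusted p = 0.0262) than in N-mDCs. The T-mDC call ended without N-mDC sample 2 or 3 or any T-mDC sample, with limma adjusted p up to 0.112 without T-mDC sample 3. NK cell markers, of which Ncr1 is one, summed to 128 to 179 FPKM for N-mDCs, 3.92 to 20.5 FPKM for T-DCs and 22.8 to 33.8 FPKM for T-mDCs. Klrd1 alone gave 70.1 to 93.2 FPKM for N-mDCs, 2.47 to 7.98 FPKM for T-DCs and 21.7 to 31.6 FPKM for T-mDCs. It was thus nearly all of the sum in T-mDCs. The part of NK cells in the level of Ncr1 was not tested. Against T-mDCs, the C-type lectin Clec4e (Mincle), which signals through Fcer1g, was higher in T-DCs, at 29.9, 30.2 and 12.3 FPKM against 5.76, 0.302 and 0.350 FPKM (3.36, limma, adjusted p = 0.0246). The call ended without T-DC sample 2 (limma, adjusted p = 0.0852) or T-mDC sample 2 or 3 (0.107 and 0.106). Lilra6, an activating immunoglobulin-like receptor, was lower (-1.31, limma, adjusted p = 0.0191), but not without T-mDC sample 2 or 3 (0.0919 and 0.0843). Tyrobp, the other ITAM adaptor of myeloid cells, was not called in any comparison.

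Of 11 other Fc receptor and Fc receptor-like genes, 5 could be tested. Fcrla and Fcrl1, which are known from B cells, were lower in T-DCs relative to N-mDCs (-1.91, limma, adjusted p = 0.00796, and -1.67, adjusted p = 0.0157). Fcrla held without any 1 sample, and Fcrl1 ended when T-DC sample 2 or N-mDC sample 1 was left out (limma, adjusted p = 0.0597 and 0.0596). Against T-mDCs, Fcrlb was lower (-1.48, limma, adjusted p = 0.0311) and held in 3 of the 9 fits, with adjusted p up to 0.0911 without T-mDC sample 2. None was called higher in any comparison.

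Of 23 genes of actin remodeling at the phagocytic cup, 1 was called higher and 1 lower against N-mDCs, with a median of -0.26. The kinase Pak1 was at 17.2, 6.46 and 5.24 FPKM in T-DCs and 42.9, 41.3 and 31.8 FPKM for N-mDCs (-2.06, limma, adjusted p = 0.0105), which held without any 1 sample and was lost with the red cell covariate (adjusted p = 0.0685). The adaptor Crkl was higher by 0.77 (limma, adjusted p = 0.0223), but the call ended when 1 of N-mDC sample 1, T-DC sample 2 and T-DC sample 3 was left out (0.0524, 0.0762 and 0.0618). Against T-mDCs, Pak1 alone was called (-1.90, limma, adjusted p = 0.0159), and not without T-DC sample 2 (0.0621) or T-mDC sample 2 or 3 (0.0763 and 0.0756). None of the 23 was called in T-mDCs against N-mDCs.

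**Figure D5:**
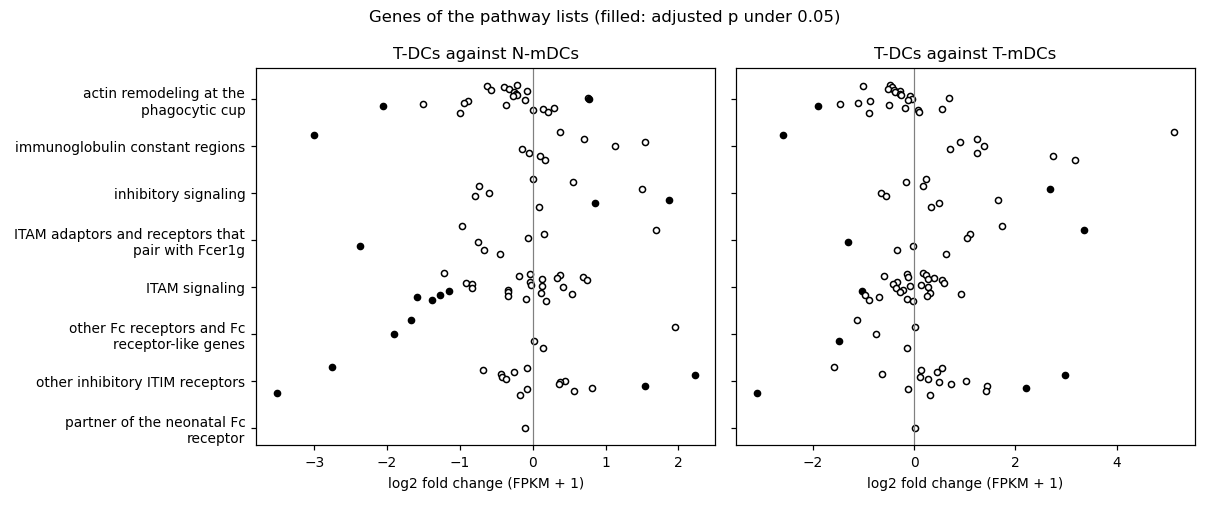
Log2 fold change on the log2(FPKM + 1) scale of each tested gene of the lists that act with the Fc receptors, in T-DCs against N-mDCs (left) and against T-mDCs (right), 1 point per gene. Filled points passed an adjusted p of 0.05 in limma. Most genes of each list are open points, such as 22 of the 26 ITAM signaling genes against N-mDCs.

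The genes whose levels ran most like those of an Fc receptor were found by the root mean square difference of log2(FPKM + 1), centered on its mean over the 9 samples. For Fcer1g they were Gpx3, Aldh3b1 and Slc11a1, with differences of 0.14, 0.16 and 0.17 where Fcer1g itself varied by 0.76 about its mean. For Fcgr2b they were Hip1, Gsr and Dusp16 (0.19, 0.20 and 0.21, own variation 0.86). For Fcgr3 they included Tcn2 and Ctsl (0.20 and 0.21, own variation 0.91). For Fcgr4, added after its values were seen, they were Ms4a4a, Smpdl3b and Dnah12, and the differences of 0.57, 0.62 and 0.63 were larger, as was its own variation of 2.02. None of these genes was shared between the 4 Fc receptor genes.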

How the data were processed

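Bulk RNA-seq of 9 samples of sorted mouse splenic DCs was analysed. The authors deposited 1 table of FPKM per gene and sample, with gene lengths. The submitters' processing notes name build mm10, and the gene coordinates were those of the GENCODE M21 annotation. The aligner, the counting tool and the strandedness are not given in the sources used here, so overlapping genes cannot be separated, of which only a small nuclear RNA within Fcgr4 reached 14.2 FPKM. The product of FPKM and gene length was a whole number of reads up to a scale for each sample (largest deviation 5.77e-05 reads). Each sample holds a share of a fixed total, so a gene that takes many reads lowers the others. The number of fragments limits the precision, and intervals cover counting error only where stated.

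Tests ran on log2(FPKM + 1) of the 12746 genes that reached 1 FPKM in 3 samples or more. One limma model (version 3.58.1, under R 4.3.3) held all 3 groups with an empirical Bayes trend and no covariate, and Benjamini-Hochberg adjustment ran over all these genes, with calls at an adjusted p under 0.05. Samples were not paired in this model, and the sources do not say whether T-DC and T-mDC samples came from the same mice. Tables were handled with Python 3.11.15 and pandas 2.3.3.

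The members and lists were chosen with earlier results of these data known. The genes named are the 8 Fc receptors, up to 4 genes per list and comparison with the largest change among those called, the 3 genes most like Fcer1g, Fcgr2b and Fcgr3, and marker genes beside a result. One gene that this rule names for Fcgr3 is not reported here. Inpp5d, Syk and Tyrobp were named after their values were seen. Alternatives were another pseudocount, other filters, rescaling to TPM, quantile and median-of-ratios scaling, array weights, no variance trend, a replicate block, voom on the recovered reads, T-mDC samples 2 and 3 averaged, red cell genes as a covariate, only the groups compared, and each sample left out. Rescaling without the red cell genes was chosen after seeing the data. Protein sequences, single-cell data and flow cytometry were not used here.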

Additional observations from a re-analysis of the deposited data

How the results depend on the processing

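Fcgr4 against N-mDCs kept its limma call in 22 of 23 alternatives and against T-mDCs in 16. Fcer2a, which could not be tested at an FPKM of at least 5, kept its calls in 22 and 21 of 22. Fcgr1 kept them in 14 (T-DCs) and 17 (T-mDCs) of 23 against N-mDCs, and Fcmr in 10. The cause of a lost call was not tested.

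The number of Fc receptor genes called in T-DCs against N-mDCs went from 4 to 2 with no filter, with only the groups compared and with a replicate block, and to 1 with the red cell covariate. In T-DCs against T-mDCs it went from 2 to 1 with no filter, at FPKM of at least 5, with T-mDC samples 2 and 3 averaged and with only the groups compared, to 0 with the red cell covariate and to 8 with array weights, which stopped before reaching their tolerance. In T-mDCs against N-mDCs it went from 1 to 0 with the block or the averaged samples and to 4 with array weights. Leaving out 1 sample gave 2 to 5, 1 to 3 and 0 to 2. These counts stand beside those over all genes tested. Array weights called 9923 of the 12746 genes in T-DCs against T-mDCs and 3841 in T-mDCs against N-mDCs. The red cell covariate called 0 of all genes in T-DCs against T-mDCs.

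Over all genes, 2096, 1813 and 282 were called in these comparisons. Array weights called 8485, 9923 and 3841, the averaged samples 1394, 540 and 23, and only the groups compared 1070, 1036 and 850. The red cell covariate called 652 and 0 of the former 2, with 1608 at an unadjusted p under 0.05 beside the 0. The replicate block called 1378 and 78 (T-mDCs against N-mDCs). FPKM of at least 5 called 1190 and 111 (the latter T-mDCs against N-mDCs), and that comparison gave 107 with a pseudocount of 0.1, 99 as TPM and 173 with voom. Leaving out 1 sample gave 980 to 5030, 541 to 4475 and 23 to 1022. Of the calls in T-DCs against T-mDCs, 693 were higher and 1120 lower, against 376 and 1339 as TPM and 478 and 1432 with voom. TPM moved the median of all genes there to -0.23 and in T-mDCs against N-mDCs to 0.24, and voom moved the latter to 0.13.

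Same-numbered samples deviated together in 2 of 9 pairs (r from -0.48 to 0.27), and 0 of 9 samples correlated best with their own number in both other groups, so the replicate block rests on a shared number only. With 3 samples per group, these correlations cannot settle whether samples of different groups came from the same mice. With the block, Fcgr1 lost its call in T-DCs (adjusted p = 0.0642) and T-mDCs (0.0522), and Fcmr in T-DCs (0.0661, limma).

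The sign of Fc receptor genes without a call changed in 16 combinations of a result and an alternative. These came from Fcgrt and Fcmr in T-DCs against T-mDCs, Fcgr2b in T-mDCs against N-mDCs and Fcgr3 in T-DCs against N-mDCs. Fcgrt in T-DCs against T-mDCs was -0.26 as TPM, -0.22 with quantile scaling, -0.37 with array weights, -0.082 with voom, -0.00785 with the averaged samples, and -0.534, -0.00590 and -0.00979 without T-DC sample 1 or T-mDC sample 2 or 3. Array weights made the former and Fcmr there (1.37) calls. Fcgr2b in T-mDCs against N-mDCs was -0.40 with array weights, -0.14 with the red cell covariate, -0.02 without N-mDC sample 2 and -0.44 without T-mDC sample 1, and ran to 0.377 when 1 sample was left out. Fcgr3 in T-DCs against N-mDCs was 0.18 without N-mDC sample 2 and 0.02 and 0.23 without T-DC samples 2 and 3, and ran from -0.638 when 1 sample was left out.

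The log2 activating to inhibitory ratio of T-mDCs against N-mDCs, -0.01, was -1.53 with Fcgr3 alone, -1.12 with the mean of log2 levels and 0.14 with the averaged samples, and -0.32 to 0.39 when 1 sample was left out. Against N-mDCs and T-mDCs that of T-DCs was -1.60 and -0.0656 with Fcgr3 alone, -0.54 and 0.58 with the mean of log2 levels, and 1.29 to 1.97 and 1.43 to 1.89 when 1 sample was left out. Rescaling without the red cell genes, added after seeing the data, changed no call of an Fc receptor gene.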

Other observations

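The mRNAs of the antibodies themselves were listed beside their receptors. Of 9 tested immunoglobulin constant region genes, Ighd, the heavy chain of IgD, was the only one called. It was at 1.205, 3.16 and 0.693 FPKM in T-DCs, 27.5, 16.1 and 15.3 FPKM for N-mDCs and 23.0, 10.3 and 11.4 FPKM in T-mDCs, and T-DCs did not overlap with the other groups. The log2 difference was -2.997 against N-mDCs (limma, adjusted p = 0.00297) and -2.59 against T-mDCs (adjusted p = 0.00580), and both calls held without any 1 sample, and the latter was lost with the red cell covariate (adjusted p = 0.242). The remaining 8 were not called in either comparison.

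Within T-DCs, sample 1 had the highest level of all 3 activating IgG receptor genes and of Fcgr2b and Fcer1g, and sample 3 the lowest. That order is not particular to these genes. The summed markers of DCs (1824, 1214 and 497 FPKM), macrophages and monocytes had it too, whereas those of B cells, neutrophils and red cells did not. The order of Fcmr was different, with sample 2 the highest.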
